A study of Danio rerio with 17 samples.

Results

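Semaphorins, ephrins, Slits and netrins are guidance ligands, and plexins, neuropilins, Eph receptors, Robos and Unc5 proteins are their receptors. The zebrafish genes of these families were taken from the deposited table by the start of the gene symbol, and 96 of its 30220 genes matched. One match, unc50, shares only its spelling with the Unc5 receptors and was kept apart, which left 95 genes, 51 on the ligand side and 44 on the receptor side. The ligands were 12 secreted class 3 semaphorins, 18 membrane semaphorins of classes 4 to 7, 7 ephrin-A, 5 ephrin-B, 4 Slit and 5 netrin genes. The receptors were 12 plexins, 4 neuropilins, 10 EphA, 9 EphB, 4 Robo and 5 Unc5 genes. Membrane semaphorins and ephrins can also signal into the cell that carries them, so the sides follow the usual role of each family.

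Embryos with fluorescent reporters were dissociated, their cells were sorted, and polyadenylated RNA was sequenced in 17 libraries of 6 groups. In Tg(acta2:egfp) embryos at 4 days post fertilization, 3 libraries held reporter-positive cells, labelled mural, and 3 held negative, non-mural cells. Tg(acta2:mcherry);(foxc1b:egfp) embryos of the same stage gave 2 positive libraries, also labelled mural, and 3 negative ones. Tg(kdrl:mcherry) embryos at 5 days gave 3 positive, endothelial and 3 negative, non-endothelial libraries. Reporters follow the genes they are named for: acta2 encodes smooth muscle actin, foxc1b a forkhead factor, and kdrl a VEGF receptor. The color that defined a positive cell in the double line, called acta2/foxc1b here, is not in the labels, and neither is the number of embryos or clutches behind a replicate. The p-values therefore measure the spread between these samples, and that spread may be technical. Only kdrl cells went through fixation, and they alone had a different library kit, so where the kdrl line is set against the others, line, stage, fixation and kit cannot be told apart.

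Class 3 semaphorins are secreted and bind plexins mostly through neuropilins, while Sema3E binds plexin D1 directly. In zebrafish, plexin D1 in endothelium restrains and steers sprouting vessels in response to semaphorins from the somites. Ephrins and Eph receptors signal where cells touch, with ephrin-B2 marking arteries and EphB4 veins. Slits repel axons through Robos, of which Robo4 is the vascular member, and netrins attract through DCC proteins and repel through Unc5 receptors.

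Libraries held 10474235 to 40868765 reads, recovered from the deposited normalized read counts. All 18 endothelial markers were higher in kdrl positive cells. Of 14 tested mural markers, 8 were higher in acta2 positive cells and 3, acta2, cnn1b and tagln, in acta2/foxc1b positive cells. The labels name embryonic vascular smooth muscle as the tissue of all libraries, while the marker sums follow the sorted population: the summed endothelial markers ran from 42996 to 126871 normalized read counts in kdrl positive and from 2929 to 3499 in kdrl negative libraries. One library stood apart. In acta2/foxc1b negative replicate 2 the summed epidermis markers reached 2561681 normalized read counts, against 12881 and 24688 in replicates 1 and 3, and its mean correlation with them across genes was 0.836, the lowest of the 17 libraries. For the acta2/foxc1b sort, the limma and non-overlap counts of guidance genes, their medians and the called differences are given with and without it. Marker and partner counts, and those by unadjusted p, edgeR, DESeq2 and the authors' table, are given only with it.

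All 95 guidance genes passed the filter on low values in every comparison, and 92 to 95 of them had a read in every library of a group. The number called differed by sort. In acta2 positive cells 6 guidance genes (6.32%) rose and 3 (3.16%) fell, against 3.26% and 3.75% of the 20582 genes tested. In kdrl positive cells 1 gene (1.05%) rose and 13 (13.7%) fell, against 3.17% and 2.79% of 24903. In acta2/foxc1b positive cells none of the 95 was called in either direction, against 0.0271% higher and 0.0% lower of 22116. A gene is called where the limma p-value, adjusted over all genes tested in that comparison, is under 0.05, and all changes are on the log2(normalized read count + 1) scale. In bulk samples, fewer cells of a type and less RNA per cell cannot be told apart.

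Ligands and receptors were called by limma in similar numbers within a sort. In the acta2 sort 3 of 51 ligands (5.88%) and 3 of 44 receptors (6.82%) rose, against 3.26% of all genes. There 3 ligands (5.88%) and 0 receptors fell, against 3.75%, too few calls to tell the sides apart. In the kdrl sort 7 ligands (13.7%) and 6 receptors (13.6%) fell, against 2.79%. The 1 gene that rose in that sort was a receptor (2.27% of 44), against 3.17%. The median log2 fold change of the ligands was 0.15 in the acta2, 0.86 in the acta2/foxc1b and -0.60 in the kdrl sort, and that of the receptors 0.07, 0.65 and -0.78. The medians of all 95 genes were 0.09, 0.69 and -0.71, beside -0.06, -0.11 and -0.05 for all genes tested. Under quantile normalization, which moved the median of all genes to 0.07 in the acta2 sort and 0.04 in the acta2/foxc1b sort, the guidance genes had 0.05 and 0.62. The acta2/foxc1b median was 0.31 without negative replicate 2, with 0.32 for ligands and 0.28 for receptors beside -0.08 for all genes, and 0.23 without positive replicate 1, so its size rests on these libraries. The acta2 median ran from 0.01 without negative replicate 3 to 0.20 without positive replicate 1.

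**Figure D1:**
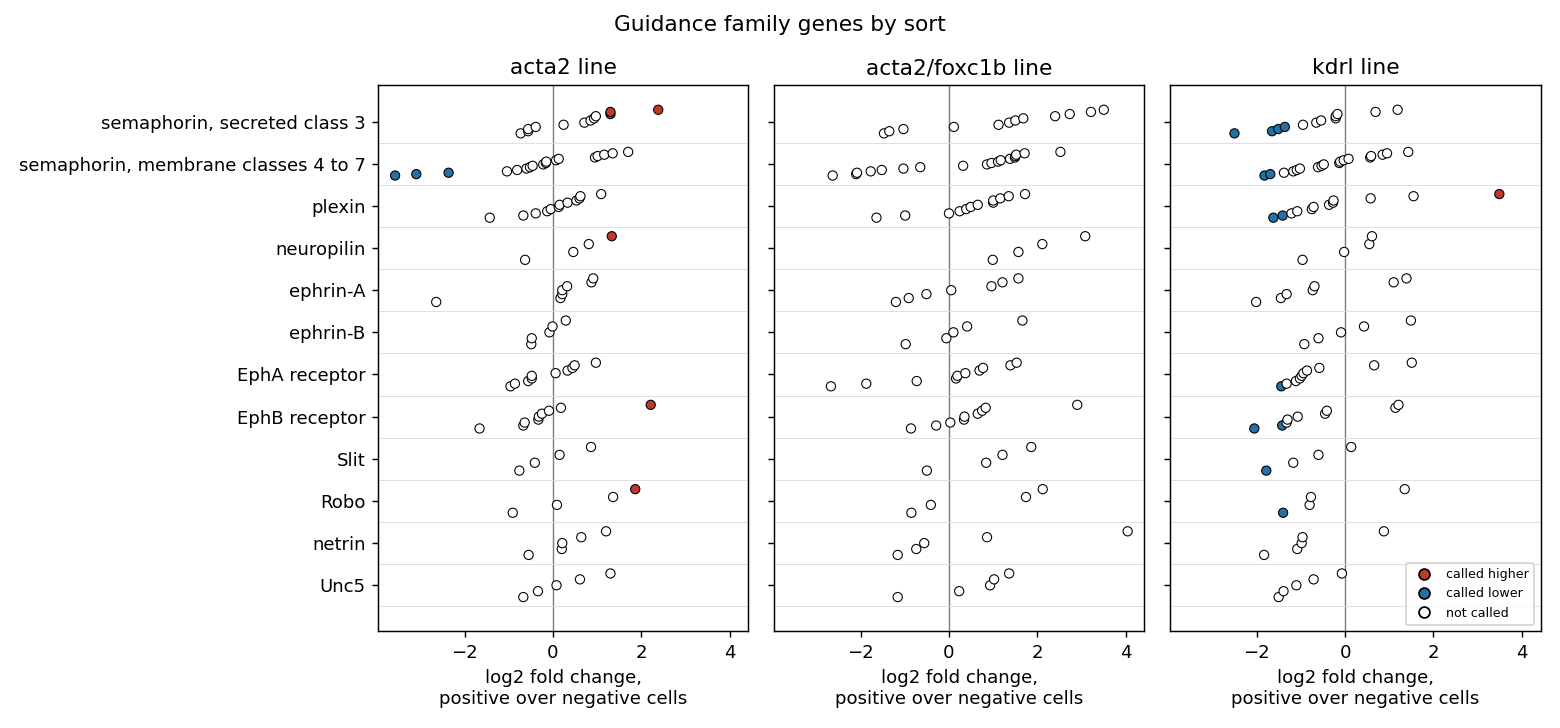
Log2 fold change, positive over negative cells, of each of the 95 guidance genes in the acta2, acta2/foxc1b and kdrl sorts, one circle per gene, arranged by family. Red circles are genes called higher, blue ones genes called lower and white ones genes not called. In the acta2 sort 3 class 3 semaphorins are red, in the kdrl sort 4 are blue, and the only red circle of the kdrl sort is a plexin at 3.49.

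Class 3 semaphorins, the secreted ligands, had calls in both single-reporter sorts, in opposite directions. EphB and Robo genes likewise had calls in opposite directions, higher in the acta2 sort and lower in the kdrl sort. Of the 12 class 3 genes, 3 (25.0%) rose and 0 fell in acta2 positive cells, against 3.26% and 3.75% of all genes. In kdrl positive cells 0 rose and 4 (33.3%) fell, against 3.17% and 2.79%. The family's median log2 fold change was 0.78 in the acta2, 1.43 in the acta2/foxc1b (1.18 without negative replicate 2) and -0.60 in the kdrl sort. The medians of all 95 guidance genes were 0.09, 0.69 (0.31) and -0.71, so the median fall in the kdrl sort was no larger in this family. Groups without overlap in the lower direction there were 33.3% of the family, against 40.0% of the 95.

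The gene sema3e, which encodes the plexin D1 ligand Sema3E, had 5684, 5766 and 3484 normalized read counts in acta2 positive replicates 1, 2 and 3, against 1091, 859 and 861 in acta2 negative ones; values are in replicate order here and below. Every positive library was over 3 times as high as every negative one. The log2 fold change was 2.38 (SE 0.30, limma adjusted p = 0.00548), and the call held with any of the 6 libraries left out, with adjusted p between 0.01 and 0.031. In the acta2/foxc1b line sema3e had 2707 and 3100 normalized read counts in positive libraries against 623, 355 and 745 in negative ones, again without overlap. The log2 fold change of 2.40 (SE 0.57) was close to that of the acta2 line but was not called (adjusted p = 0.177). Without negative replicate 2 it was 2.09 and called (adjusted p = 0.044). The kdrl line had the opposite order: sema3e had 375, 189 and 179 normalized read counts in positive libraries and 488, 932 and 882 in negative ones. It fell by 1.65 on the log2 scale (SE 0.41, adjusted p = 0.0424, 0.0348 with the replicate number as a block). That call was kept without positive replicate 1 and lost without any other library, with adjusted p up to 0.143.

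The paralogs sema3fa and sema3fb, which encode Sema3F, a neuropilin 2 ligand, both rose in acta2 positive cells by limma. Neither was called there in the authors' deposited table (adjusted p = 0.0648 and 0.111). The counts of sema3fa were 4113, 5256 and 4083 in acta2 positive libraries against 1312, 2473 and 1814 in negative ones. Its log2 fold change was 1.30 with an SE of 0.31 (limma adjusted p = 0.0397), and the call was lost in edgeR (adjusted p = 0.0571) and with any library left out (0.0629 to 0.122). The counts of sema3fb were 2411, 1951 and 2063 in positive and 881, 774 and 947 in negative libraries, and the log2 fold change 1.30 with an SE of 0.26 (adjusted p = 0.0226). Its call was lost without negative replicate 2 (0.0947) or 3 (0.0764) or positive replicate 2 (0.0536) or 3 (0.077). In kdrl positive cells only sema3fa of this pair was called, at 364, 514 and 350 normalized read counts against 1047, 1285 and 1122 in negative cells. It fell by 1.51 (SE 0.32, adjusted p = 0.0234), a call kept with positive replicate 2 left out and lost without any other library (0.0513 to 0.098). For sema3fb the kdrl libraries overlapped, at 883, 1106 and 979 in positive and 834, 1437 and 1241 in negative cells.

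The neural crest and vascular guidance ligand gene sema3d had 218, 390 and 198 normalized read counts in kdrl positive libraries against 810, 2253 and 1683 in kdrl negative ones. It fell by 2.50 (SE 0.44, limma adjusted p = 0.0112), the largest fall among the 13 guidance genes called lower in that sort, and the call was lost only without negative replicate 2 (0.0502). The acta2 libraries of sema3d did not overlap either, at 5726, 2787 and 2563 in positive and 2540, 1410 and 1510 in negative cells, but it was not called (adjusted p = 0.165). In the acta2/foxc1b line it had 1518 and 6143 against 534, 135 and 498, a log2 fold change of 3.21 with an SE of 0.88 (adjusted p = 0.234), and of 2.56 without negative replicate 2 (0.0915). The gene sema3c, whose product binds both neuropilins, fell by 1.36 in kdrl positive cells (SE 0.32, adjusted p = 0.034), at 272, 236 and 232 against 511, 722 and 689. Its call was lost with any library left out (0.0643 to 0.133). For sema3c the acta2 line had 779, 751 and 860 in positive and 359, 561 and 565 in negative libraries without being called (adjusted p = 0.197).

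The gene sema3bl, a Sema3B-like ligand, had 4259 and 10096 normalized read counts in acta2/foxc1b positive libraries against 1102, 200 and 884 in negative ones. The log2 fold change was 3.50 (SE 0.87, limma adjusted p = 0.194), and 2.73 with a call (adjusted p = 0.0458) without negative replicate 2. Its relative sema3b had 622 and 1124 in acta2/foxc1b positive libraries, below the 1374, 1856 and 1951 of the negative ones, and was not called (adjusted p = 0.573). Where reads match more than 1 paralog, the authors' counting could have split them, which was not tested for any pair named here. No Sema3A or Sema3G gene was called in any sort. The Sema3A paralog sema3aa had 166, 216 and 572 in acta2 positive against 230, 341 and 159 in acta2 negative libraries, and 213, 80.6 and 54.5 in kdrl positive against 253, 136 and 84.9 in kdrl negative ones. Its partner sema3ab had 102, 117 and 50 in kdrl positive and 73.9, 88.3 and 21.2 in kdrl negative libraries. For the Sema3G genes, sema3ga had 161, 107 and 43.1 in kdrl positive against 70.1, 47.7 and 17.8 in kdrl negative libraries, and sema3gb 55.8, 26 and 114 against 77, 60 and 51.8.

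**Figure D2:**
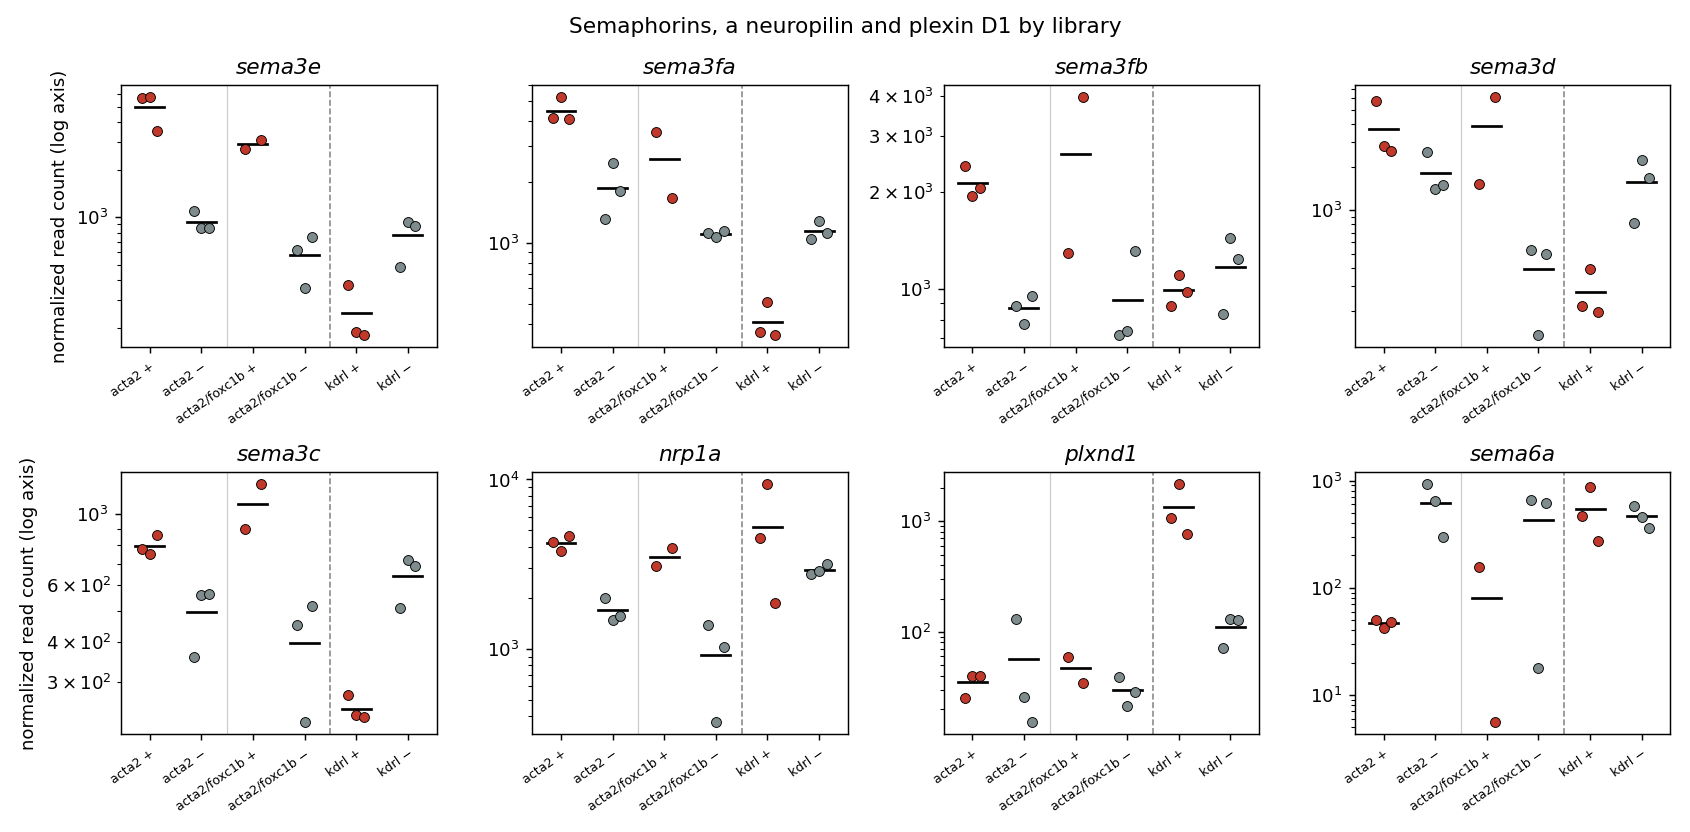
Normalized read counts (log axis) of 8 genes in every library, positive (+, red) left of negative (−, gray) for the acta2, acta2/foxc1b and kdrl lines, with a bar at each group mean; the dashed line parts the sets of libraries that were scaled apart. For sema3e the positive libraries lie above the negative ones in both acta2 lines and below them in the kdrl line, and for plxnd1 the kdrl positive libraries, at 763 to 2191, lie above the negative ones, at 71.6 to 131.

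Among the 18 membrane semaphorins, which act at close range, 3 (16.7%) fell in acta2 positive cells, against 3.75% of all genes. In kdrl positive cells 2 others (11.1%) fell, against 2.79%. The class 6 gene sema6a, a ligand of plexin A receptors, had 50, 41.8 and 48.3 normalized read counts in acta2 positive libraries against 937, 639 and 297 in negative ones. It fell by 3.57 (SE 0.48, limma adjusted p = 0.00634), 11.8-fold, and was called with any library left out (adjusted p 0.00817 to 0.0395). Its kdrl libraries overlapped, at 469, 878 and 275 in positive and 576, 459 and 360 in negative cells. The class 4 gene sema4d, a plexin B1 ligand, had 3.13, 12.8 and 8.39 against 115, 66.1 and 41.4 in the acta2 line and fell by 3.09 (SE 0.74, adjusted p = 0.0405). The lipid-anchored class 7 gene sema7a, a ligand of plexin C1 and integrins, had 93.8, 178 and 69.2 against 1210, 389 and 339 and fell by 2.36 (SE 0.57, adjusted p = 0.0405). Both calls were lost without any library but positive replicate 2, with adjusted p up to 0.15 for sema4d and 0.114 for sema7a. Negative replicate 1, at 1210, was over 3 times the next library for sema7a.

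In kdrl positive cells the class 5 genes sema5a and sema5bb, whose products carry thrombospondin repeats, were the membrane semaphorins that fell. The counts of sema5a were 381, 151 and 266 in positive and 754, 996 and 911 in negative libraries, a fall by 1.82 (SE 0.39, limma adjusted p = 0.0245). Those of sema5bb were 141, 99.7 and 59 against 253, 320 and 352, a fall by 1.69 (SE 0.41, adjusted p = 0.0379). Leaving out positive replicate 2 (0.0525) or any negative replicate (up to 0.0904) ended the call of sema5a, and leaving out any library but positive replicate 1 (up to 0.123) that of sema5bb. The gene sema7a, lower in acta2 positive cells, had 977, 2624 and 568 in kdrl positive and 399, 530 and 351 in kdrl negative libraries, which did not overlap. It missed the limma call there (adjusted p = 0.129) and was called with the replicate block (0.0311), without kdrl positive replicate 3, by DESeq2 and in the authors' deposited table.

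On the receptor side, plxnd1 was the only guidance gene called higher in kdrl positive cells by the main limma fit. It encodes plexin D1, the endothelial semaphorin receptor, and had 1061, 2191 and 763 normalized read counts in kdrl positive libraries against 71.6, 131 and 129 in negative ones. The log2 fold change was 3.49 (SE 0.45, limma adjusted p = 0.00235, 0.00125 with the block), 11.3-fold, and the call held with any library left out (0.000884 to 0.0128). The gene was low in the acta2 line, with 25, 39.5 and 39.9 in positive and 130, 25.7 and 15.2 in negative libraries, and in the acta2/foxc1b line it had 59.7 and 34.5 against 38.7, 21.1 and 28.5. The kdrl positive libraries also held summed leukocyte markers of 14968 to 47804 normalized read counts against 1158 to 4043 in negative ones, with 7 of 11 markers higher. Their summed epidermis markers overlapped those of the negative libraries, at 49781 to 427962 against 18393 to 58235, with 3 of 10 higher. No endothelial, leukocyte or epidermis marker was at 0 in a kdrl library, and the part of these cells in the result was not tested.

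Of the 12 plexin genes, 2 (16.7%), both plexin A genes, were called lower in the kdrl sort by the main limma fit, against 2.79% of all genes. The gene plxna1a, for a receptor of class 3 and class 6 semaphorins, had 584, 1236 and 854 normalized read counts in kdrl positive libraries against 2867, 2098 and 2976 in negative ones, a fall by 1.62 (SE 0.37, limma adjusted p = 0.0315). The relative plxna4 had 660, 822 and 1240 against 2149, 1928 and 3061, a fall by 1.41 (SE 0.36, adjusted p = 0.048). The call of plxna1a was kept without positive replicate 2 and that of plxna4 without positive replicate 3, and leaving out any other library ended them, with adjusted p up to 0.101 and 0.149. For plxna1a the acta2 line had 8696, 6661 and 6846 in positive libraries against 6626, 4510 and 4404 in negative ones and was not called. The plexin C1 gene plxnc1, the Sema7A receptor, did not overlap in either line, at 745, 550 and 1569 against 210, 314 and 385 in the kdrl line and 130, 106 and 72.4 against 358, 304 and 183 in the acta2 line. It missed the limma call in both (adjusted p = 0.065 and 0.0837), and was called in the kdrl line with the block (0.018). Limma without kdrl positive replicate 2 also called it higher in the kdrl line, and DESeq2 called it in both lines. The authors' deposited table called it in the kdrl line (adjusted p = 0.00898) and not in the acta2 line (0.111).

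The neuropilin gene nrp1a, for a co-receptor of class 3 semaphorins and VEGF, rose in acta2 positive cells. It had 4247, 3806 and 4626 normalized read counts in positive and 1996, 1489 and 1570 in negative libraries, on the log2 scale 1.33 higher (SE 0.26, limma adjusted p = 0.0213). Leaving out negative replicate 2 (0.0897), negative replicate 3 (0.0918) or positive replicate 3 (0.0852) ended the call. In the acta2/foxc1b line it had 3064 and 3929 against 1381, 369 and 1019, without overlap and without a call, also without negative replicate 2 (adjusted p = 0.0915). Its kdrl libraries overlapped, at 4512, 9453 and 1853 against 2773, 2885 and 3164. The other neuropilin genes were not called in any sort by the main limma fit, without the block or another alternative. In the acta2/foxc1b line nrp1b had 226 and 107 in positive against 31, 3.25 and 45.3 in negative libraries. The authors' deposited table called nrp1a (1.69, adjusted p = 0.0118) and nrp1b (1.94, adjusted p = 0.0499) higher in that line. Quantile normalization called nrp2a lower in the kdrl sort. For nrp2a and nrp2b the acta2 positive libraries (1992 to 2412 and 6235 to 10675) lay above the negative ones (1508 to 1844 and 4696 to 5547). For nrp1b they overlapped, at 20.3 to 121 against 45.6 to 120. In the kdrl line nrp2a had 697, 1047 and 611 in positive libraries against 1206, 1497 and 1805 in negative ones, nrp2b overlapped at 1708 to 4131 against 2420 to 2730, and nrp1b had 47.7 to 65.1 against 18.7 to 67.8.

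In the Eph system all calls of the main limma fit were on the receptor side. None of the 12 ephrin genes was called in any sort in that fit. In acta2 positive cells 1 of 9 EphB genes rose, against 3.26% of all genes. In kdrl positive cells 2 EphB genes (22.2%) and 1 of 10 EphA genes fell, against 2.79%. At such shares a family of this size can have no call, so these counts do not set ephrins apart from their receptors. With the block, 4 ephrin genes were called in the kdrl sort, efna1a, efna1b and efnb2b higher and efna2a lower. The shares of all genes called with the block there were 7.08% higher and 6.41% lower. Quantile normalization called efna2a and efna5a lower in the kdrl sort, against 3.8% of all genes. The counts of efna2a were 233, 426 and 161 in kdrl positive against 691, 634 and 754 in kdrl negative libraries (limma adjusted p = 0.0575, 0.0322 with the block). DESeq2 and the authors' deposited table (log2 fold change -1.11, adjusted p = 0.0266) also called efna2a lower there. The receptor gene ephb3b had 1606, 1023 and 813 normalized read counts in acta2 positive libraries against 335, 162 and 247 in negative ones, on the log2 scale 2.21 higher (SE 0.39, limma adjusted p = 0.0145). The call was lost without negative replicate 2 (0.0629) or 3 (0.0563). In the kdrl line ephb3b had 209, 211 and 125 in positive against 540, 369 and 418 in negative libraries, which did not overlap, with limma adjusted p = 0.0601 and 0.028 with the block. DESeq2 and the authors' deposited table (log2 fold change -1.08, adjusted p = 0.0216) called ephb3b lower in that line. Its paralog ephb3a overlapped in the acta2 line, at 669, 973 and 954 against 641, 1057 and 1108. It fell in the kdrl line by 2.05 (SE 0.41, adjusted p = 0.0183), with 288, 740 and 693 against 1915, 2248 and 2455, a call lost without negative replicate 1 (0.051) or 2 (0.0633). A gene listed as ephb3, with 69 to 230 in kdrl positive and 191 to 456 in kdrl negative libraries, may share reads with both, which was not tested.

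The receptor genes ephb1 and epha4b also fell in kdrl positive cells, by 1.42 (SE 0.33, limma adjusted p = 0.0349) and by 1.44 (SE 0.34, adjusted p = 0.0372). Their counts were 101 to 132 in positive and 301 to 369 in negative libraries for ephb1, and 145 to 259 against 514 to 599 for epha4b. Either call was kept without positive replicate 3 and lost without any other library, with adjusted p up to 0.118 and 0.13. The artery and vein pair was not called by the main limma fit. The venous receptor gene ephb4a had 2495, 3972 and 1799 in kdrl positive libraries, all above the 706, 1487 and 1585 of the negative ones (adjusted p = 0.151, 0.0634 with the block). Its paralog ephb4b overlapped, at 943, 632 and 313 against 213, 383 and 184. The arterial ligand gene efnb2a was low in both groups, at 37.2, 37.6 and 13.6 against 25.9, 33.5 and 8.49. Its paralog efnb2b had 294, 383 and 120 in kdrl positive libraries, above the 99.8, 115 and 51.8 of the negative ones (adjusted p = 0.115). It was called with the block (0.0197), by DESeq2 and in the authors' deposited table (log2 fold change 1.28, adjusted p = 0.0274). Limma without kdrl positive replicate 3 called both efnb2b and ephb4b higher.

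In the acta2 line ephb4a had 3151, 1852 and 1930 normalized read counts in positive libraries against 11314, 2463 and 1632 in negative ones, where replicate 1 alone was high. There efnb2a had 21.9, 381 and 406 in positive libraries against 145, 224 and 128 in negative ones, so the positive libraries enclosed the negative ones. Several other Eph and ephrin genes gave overlapping groups in the acta2 line. Group ranges were 10.9 to 27.3 in positive and 19.4 to 24.6 in negative libraries for ephb2a, 2430 to 4788 against 2441 to 3266 for ephb2b, and 723 to 1012 against 684 to 3412 for epha2a. The ephrin genes efna1a (116 to 237 against 83.6 to 258), efnb1 (12.5 to 131 against 39.7 to 137) and efnb2b (10.9 to 131 against 38 to 68.4) overlapped as well. Of the 12 ephrin genes, efna1b and efna5b separated the groups there without a call, efna1b at 1157, 976 and 701 against 391, 546 and 552 (limma adjusted p = 0.123) and efna5b at 105, 89.5 and 122 against 50, 68.4 and 53.2 (adjusted p = 0.278). Such separation in the higher direction held for 28.6% of 7 ephrin-A and 0.0% of 5 ephrin-B genes, against 15.1% of all genes. The kdrl libraries of efna1b had 3455, 2581 and 920 against 1005, 835 and 544 those of epha2a 3927, 3267 and 827 against 796, 1487 and 387, and those of efna1a 697, 904 and 377 against 271, 510 and 171. These genes, for ephrin-A1 and its receptor EphA2, missed the limma call there (adjusted p = 0.129 for efna1b, 0.188 for epha2a and 0.192 for efna1a) and were called with the replicate block (0.02, 0.0194 and 0.0324). Limma without kdrl positive replicate 3 also called efna1b and epha2a higher, and DESeq2 and the authors' deposited table called efna1b. For ephb2b the kdrl positive libraries (465 to 1812) lay below the negative ones (1938 to 2641), and it was called with the block (0.0349). For ephb2a (29.5 to 86.1 against 44.1 to 123) and efnb1 (27.9 to 47.8 against 12.7 to 68.9) they overlapped.

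**Figure D3:**
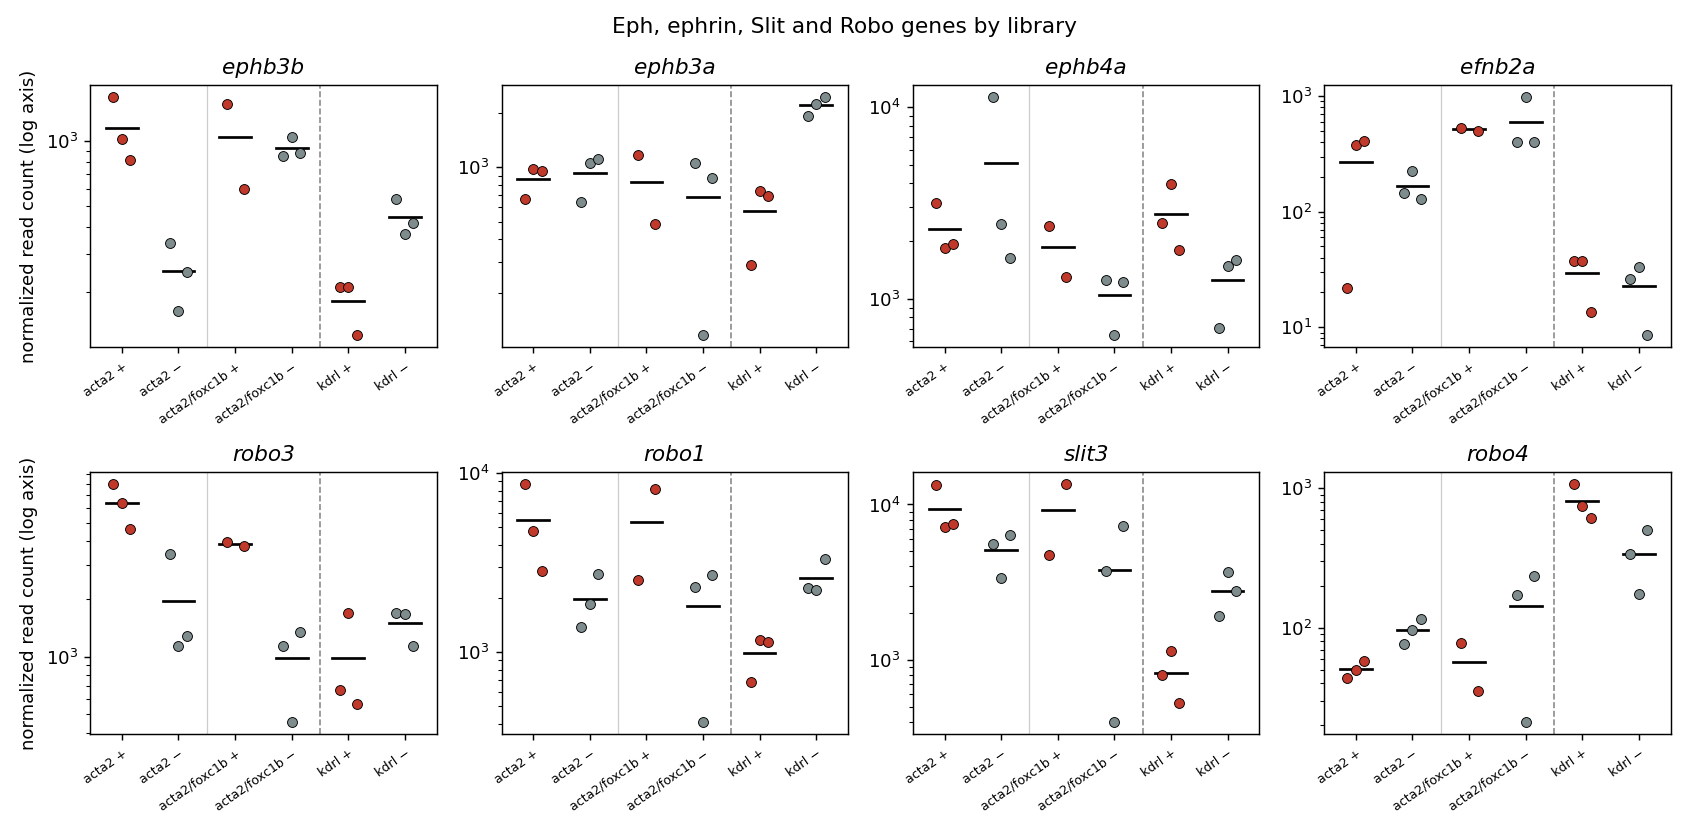
Normalized read counts (log axis) of 8 Eph, ephrin, Slit and Robo genes in every library, drawn as in the plot of semaphorin genes, positive (+, red) left of negative (−, gray) with a bar at each group mean. The acta2 positive libraries of ephb3b, at 813 to 1606, lie above the negative ones, at 162 to 335, while efnb2a shows 1 acta2 positive library at 21.9 far below the others.

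Of the Slit and Robo genes, robo3 rose in acta2 positive cells, and slit3 and robo1 fell in kdrl positive cells. The axon crossing receptor gene robo3 had 8025, 6343 and 4658 normalized read counts in acta2 positive libraries against 3437, 1133 and 1280 in negative ones, on the log2 scale 1.86 higher (SE 0.44, limma adjusted p = 0.0395). It was not called in edgeR (0.0636), and its limma call was kept only with negative replicate 1 left out (0.0139), against up to 0.144 without another library. In the acta2/foxc1b line robo3 had 3962 and 3791 in positive libraries against 1141, 455 and 1351, with a log2 difference of 2.12 (SE 0.64, adjusted p = 0.275), or 1.64 without negative replicate 2 (0.0691). The authors' deposited table called robo3 higher in that line (1.65, adjusted p = 0.0295). In kdrl positive cells the ligand gene slit3 had 794, 1148 and 525 against 1904, 3692 and 2778 in negative ones and fell by 1.78 (SE 0.40, adjusted p = 0.0297). The receptor gene robo1 had 679, 1170 and 1140 against 2282, 2228 and 3300 and fell by 1.40 (SE 0.36, adjusted p = 0.0461). The robo1 call was lost with any library left out (0.0605 to 0.146), and that of slit3 without any library but positive replicate 2 or negative replicate 1 (up to 0.11).

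In the acta2 line slit3 and robo1 were not called by the main limma fit, although their libraries did not overlap: slit3 had 13378, 7142 and 7488 in positive against 5575, 3386 and 6372 in negative libraries, and robo1 8754, 4767 and 2839 against 1384, 1858 and 2724. DESeq2 called robo1 higher there, against 5.84% of all genes. The vascular receptor gene robo4 separated the groups in opposite directions, at 43.8, 50 and 57.7 against 76.4, 96.4 and 116 in the acta2 line and 1083, 751 and 611 against 340, 175 and 507 in the kdrl line. It missed the call in both (limma adjusted p = 0.277 and 0.0973), with 0.049 in the kdrl line with the block. The ligand gene slit2 overlapped in the acta2 line, at 803 to 1184 in positive against 491 to 1340 in negative libraries, and in the kdrl line, at 1848 to 5758 against 2220 to 3229. The receptor gene robo2 also overlapped in both, at 632 to 1469 against 811 to 1310 and at 1194 to 2974 against 2069 to 3729. The ligand gene slit1b, not called by the main limma fit, was called lower in the kdrl sort with the block and by DESeq2. The authors' deposited table called it lower as well (log2 fold change -0.95, adjusted p = 0.0446).

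No netrin or Unc5 gene, 5 of each, was called in the acta2, acta2/foxc1b or kdrl sort by the main limma fit. The shares of all genes called higher and lower were 3.26% and 3.75% in the acta2 sort. They were 0.0271% and 0.0% in the acta2/foxc1b and 3.17% and 2.79% in the kdrl sort, so no call is unremarkable in families this small. Quantile normalization and DESeq2 called ntn1a lower in the kdrl sort. The authors' deposited table called ntn5 higher in the acta2/foxc1b sort (log2 fold change 2.49, adjusted p = 0.0143). The netrin 1 gene ntn1a had 716, 733 and 917 normalized read counts in kdrl positive libraries against 1279, 1559 and 1852 in negative ones, without overlap (limma adjusted p = 0.0995, 0.0367 with the block). In the acta2 line it overlapped, at 3146, 2101 and 2741 against 1187, 2107 and 1897. Its paralog ntn1b had 459, 1078 and 1099 in kdrl positive against 1430, 1208 and 2979 in kdrl negative libraries, and in the acta2 line 1076 to 1761 against 984 to 1647. The laminin-related netrin gene ntn4 overlapped in both lines, at 21.9 to 131 against 69.2 to 117 in the acta2 line and 112 to 341 against 79.5 to 137 in the kdrl line. The vascular netrin receptor gene unc5b had 169 to 424 in acta2 positive against 127 to 258 in acta2 negative libraries, and 70.4 to 99.3 against 75.5 to 241 in the kdrl line.

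With the replicate number as a block, the kdrl sort called 8 guidance genes higher and 27 lower, against 7.08% and 6.41% of all genes. No label states that same-numbered libraries are paired. The pairing was inferred from correlations of 0.475, 0.128 and 0.422 in these same libraries, so calls with the block are no separate support. The 7 further genes called higher were efna1a, efna1b, efnb2b, epha2a, plxnc1, robo4 and sema7a, and all 13 genes called lower without the block were among the 27. The authors' deposited table called 5 guidance genes higher and 19 lower in the kdrl sort, against 6.66% and 6.62% of all genes. The 5 were efna1b, efnb2b, plxnc1, plxnd1 and sema7a, and DESeq2 called the same 5 higher, against 7.43%. Groups without overlap gave the same lean: 8 guidance genes had every kdrl positive library above every negative one and 38 (40%) every one below, against 15.3% and 14.2% of all genes. Of these 38, 17 were ligands and 21 receptors, among them 6 of 12 plexins and 6 of 10 EphA genes. Without each of negative replicates 1, 2 and 3 in turn, 2, 0 and 2 genes were called lower, and without positive replicates 1, 2 and 3 there were 5, 8 and 6. Without positive replicate 2 or 3, 2 and 6 genes were called higher. All-gene shares of these fits are not given here, so whether guidance genes lost more calls than other genes cannot be told.

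Markers of other cell types were read in the kdrl sort too, where limma called 3.17% of all genes higher and 2.79% lower. Neuron markers had 0 of 22 higher and 1 lower. Their sums overlapped, at 15706 to 46998 normalized read counts in kdrl positive against 34777 to 99551 in kdrl negative libraries. Glia and neural progenitor markers had 0 of 11 higher and 5 lower, with sums of 2321 to 7814 against 15113 to 35726. Head mesenchyme and neural crest markers had 0 of 10 higher and 6 lower, with overlapping sums of 2834 to 7582 against 5596 to 7696. Skeletal muscle markers had 0 of 10 higher and 3 lower, myf5, myod1 and myog, with sums of 2917 to 5100 against 5822 to 11891. Of 15 mural markers myh11a and myl9a were higher and cspg4 lower, with overlapping sums of 5604 to 25434 against 5872 to 13334. Apart from the mural marker kcnj8, at 0 in 1 kdrl positive library, none of these markers was at 0 in a kdrl library, and their part in the lower guidance genes was not tested.

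In the acta2 sort the counts also depended on single libraries. Without negative replicates 2 and 3 and positive replicates 2 and 3 in turn, 1, 1, 3 and 2 guidance genes were called higher. Only sema6a was called lower without any one library other than positive replicate 2, and sema3e and sema6a were the 2 of 9 called genes that kept their call with each library left out. All-gene shares of these fits are not given here either. The authors' deposited table called 2 guidance genes higher, sema3e and ephb3b, and 3 lower, against 2.43% and 3.22% of all genes. It did not call sema3fa, sema3fb, nrp1a (authors' adjusted p = 0.106) or robo3 (0.0628). Non-overlapping groups were found for 23 guidance genes in the higher and 10 in the lower direction, against 15.1% and 15.7% of all genes. Of the higher ones 6 were class 3 semaphorins and 3 were neuropilins. Neuron markers had 1 of 19 higher and 6 lower in acta2 positive cells, with sums of 3606 to 7258 normalized read counts against 18238 to 32517. Glia and neural progenitor markers had 0 of 11 higher and 7 lower, with sums of 1573 to 3190 against 21613 to 25047, and head mesenchyme and neural crest markers had 4 of 10 higher, with sums of 33554 to 51458 against 19825 to 29461. Skeletal muscle markers had 0 of 10 higher and 3 lower, myf5, myod1 and myog, with overlapping sums of 12638 to 19783 against 17072 to 28543. Among leukocyte markers coro1a was lower, 1 of 9, with sums of 189 to 460 against 853 to 1025. Among epidermis markers agr2 was lower, 1 of 10, with overlapping sums of 9019 to 43203 against 29305 to 34137. The neuron marker nefma was at 0 in 2 of 3 acta2 positive libraries, and inab, vamp2 and the leukocyte markers lyz and csf3r in 1 each. The part of these cells in the acta2 result was not tested.

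In the acta2/foxc1b sort, limma and edgeR each called 0 guidance genes, while 13 (13.7%) had an unadjusted limma p under 0.05, against 11.4% of all genes. DESeq2 on the recovered reads called 4 higher, sema3bl, sema3d, sema3e and sema4ga, and 0 lower, against 2.93% and 4.71% of all genes. The authors' deposited table called 11 higher and 3 lower, against 5.17% and 6.31%. In that table sema3e had a log2 fold change of 2.13 (adjusted p = 8.35e-05) and sema3d one of 2.58 (adjusted p = 0.000595). Every positive library lay above every negative one for 25 guidance genes and below for 6, against 14.8% of all genes in either direction. Without negative replicate 2 these counts were 32 and 24, against 23.7% and 28.5%. In the fit without it limma called 2 higher, sema3e and sema3bl, and 0 lower, against 1.55% and 2.03%. The summed skeletal muscle markers were 125996 and 226341 normalized read counts in acta2/foxc1b positive libraries against 9013 to 25708 in negative ones, with 0 of 10 called, and the neuron sums 10956 and 2728 against 77234, 1937 and 55011, with 0 of 21 called. Head mesenchyme and neural crest markers summed to 21167 and 26160 in positive libraries against 4095 to 8795 in negative ones, with 0 of 10 called and a median log2 fold change of 1.99. Glia and neural progenitor markers summed to 1006 and 3894 against 4733 to 31353, with 0 of 11 called and a median of -2.94. Leukocyte markers summed to 124 and 235 against 834 to 1775, with 0 of 10 called. The part of these cells was not tested.

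The sort effects were then compared between lines, as the kdrl effect minus the effect of an acta2 line. Of the 95 genes, 5 (5.26%) had a kdrl effect called higher than the acta2 effect and 16 (16.8%) one called lower, against 3.31% and 2.8% of 25490 genes. In 5 of 5 and 15 of 16 the fitted effects of the lines had opposite signs, the exception being ephb3a. These genes were picked for a large difference of the effects, which makes opposite signs likely from the start. A sign was given also to effects that were not called, and only sema3e and sema3fa were called in both sorts. At least the libraries of plxnd1, ntn1a and ephb3a overlapped in the acta2 line, and those of sema6a and sema3fb in the kdrl line. Sema3E and plexin D1, the ligand and receptor pair, differed in opposite directions: the difference was -4.03 for sema3e (SE 0.52, limma adjusted p = 0.000395) and 3.63 for plxnd1 (SE 0.94, adjusted p = 0.0326). The plxnd1 difference was lost without acta2 positive replicate 1 (0.057), kdrl positive replicate 1 (0.055) or 2 (0.0855), or kdrl negative replicate 1 (0.0917) or 2 (0.0585). Sema7A and plexin C1, another such pair, both had a higher effect in the kdrl line, at 3.79 for sema7a (SE 0.80, adjusted p = 0.0112) and 2.98 for plxnc1 (SE 0.62, adjusted p = 0.01). The difference of sema6a was 3.65 (SE 0.67, adjusted p = 0.00446).

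Lower kdrl effects than acta2 effects were called for 9 ligands and 7 receptors. They took in 5 of 12 class 3 semaphorins, with sema3d at -3.47 (SE 0.62, limma adjusted p = 0.00384), sema3fa at -2.81 (SE 0.43, adjusted p = 0.00136) and sema3c at -2.08 (SE 0.43, adjusted p = 0.00963). Among receptors, ephb3b differed by -3.51 (SE 0.54, adjusted p = 0.00136), robo1 by -2.76 (SE 0.58, adjusted p = 0.0103) and plxna1a by -2.15 (SE 0.47, adjusted p = 0.0131), and the ligand gene slit3 by -2.64 (SE 0.56, adjusted p = 0.0108). These differences, other than that of plxnd1, were among 11 of 21 that were called with any 1 of the 12 libraries left out. The counts fell to 8 lower without kdrl negative replicate 2, to 9 without acta2 negative replicate 2 or kdrl negative replicate 3, and to 10 without acta2 negative replicate 3, acta2 positive replicate 3 or kdrl positive replicate 1. They fell to 3 higher without acta2 positive replicate 1, kdrl positive replicate 1 or 2, or kdrl negative replicate 1 or 2. Which of the line, stage, fixation and kit these differences belong to cannot be told apart.

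**Figure D4:**
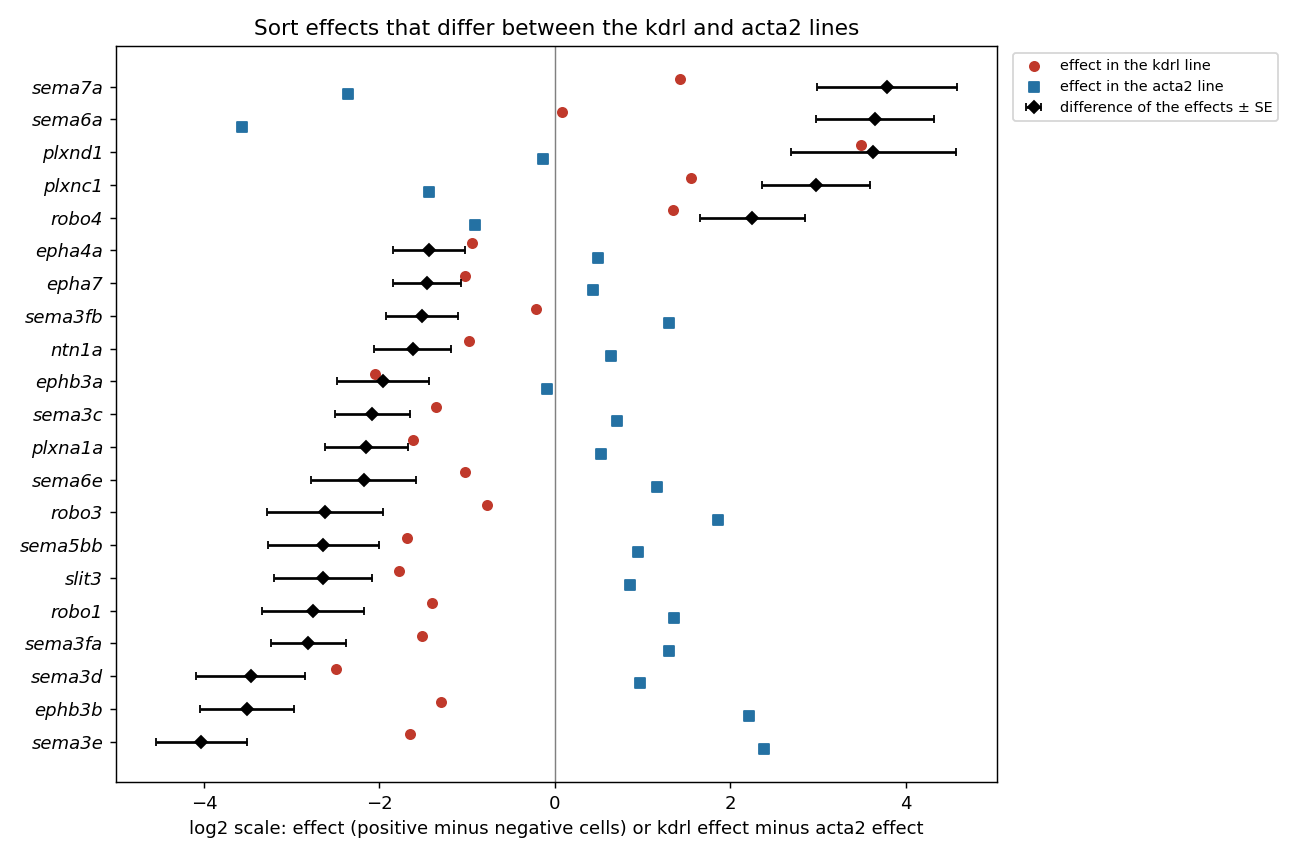
The 21 guidance genes whose sort effect differed between the kdrl and acta2 lines, on the log2 scale: red circles give the effect (positive minus negative cells) in the kdrl line, blue squares that in the acta2 line, and black diamonds their difference with its SE. The difference runs from 3.79 for sema7a at the top to -4.03 for sema3e at the bottom, and for ephb3a alone both effects lie below 0.

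Against the acta2/foxc1b sort, which was compared with the same kdrl libraries, 0 guidance genes had a called higher and 6 (6.32%) a called lower kdrl effect, against 1.1% and 1.4% of 26367 genes. They were 5 class 3 semaphorins and 1 EphA receptor gene. The differences were -5.71 for sema3d (SE 0.99, limma adjusted p = 0.011), -4.44 for sema3bl (SE 0.97, adjusted p = 0.0334), -4.05 for sema3e (SE 0.68, adjusted p = 0.00869), -2.86 for sema3c (SE 0.62, adjusted p = 0.0308), -2.62 for sema3fa (SE 0.57, adjusted p = 0.031) and -2.55 for epha7 (SE 0.53, adjusted p = 0.0263). Without acta2/foxc1b negative replicate 2 all 6 were called, at -5.06 for sema3d, -3.68 for sema3bl, -3.74 for sema3e, -2.50 for sema3c, -2.59 for sema3fa and -2.48 for epha7. The counts of epha7 were 1531 and 2373 normalized read counts in acta2/foxc1b positive against 628, 595 and 763 in negative libraries, and 880, 1083 and 995 in kdrl positive against 1598, 2421 and 2045 in kdrl negative ones. With a block for each line and number, a fit that drops acta2/foxc1b negative replicate 3, none of the 6 was called (0.0539 to 0.0933), and ntn5 was (-5.88, adjusted p = 0.0422), against 0.589% higher and 0.684% lower of all genes. Without acta2/foxc1b negative replicate 2, 4 genes were higher and 15 lower, against 2.76% and 2.69% of all genes, and the 4 were plxnd1, plxnc1, robo4 and sema4f. Without acta2/foxc1b positive replicate 2, which leaves 1 positive library assumed to vary like the others, 1 gene was called lower. The calls of sema3e and sema3d were lost only there (0.0621 and 0.0814). Without kdrl positive replicates 1, 2 and 3 the counts were 2, 3 and 2 lower, and without kdrl negative replicates 1, 2 and 3 they were 3, 2 and 2.

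Co-receptors and signalling partners of the guidance systems, 116 of 124 listed genes being in the table, were read in the same fits. In acta2 positive cells 11 of 111 rose and 6 fell by limma, beside 3.26% and 3.75% of all genes. Those that rose included the integrin genes itgb1b (3.22, adjusted p = 0.0104) and itgav (1.67, adjusted p = 0.0203), the glypican gene gpc1a (2.24, adjusted p = 0.00953) and limk1b, for a kinase that controls cofilin (2.69, adjusted p = 0.0275), all as log2 fold changes. The Down syndrome cell adhesion family genes dscamb, dscaml1 and dscama, for neuronal adhesion molecules, had log2 fold changes of -3.84 (adjusted p = 0.0165), -3.52 (0.0248) and -3.42 (0.0449). In kdrl positive cells 9 of 116 rose and 5 fell, beside 3.17% and 2.79% of all genes. Those that rose included the VEGF receptor genes kdrl (5.25, adjusted p = 0.000502), flt1 (4.87, adjusted p = 0.000502), flt4 (3.34, adjusted p = 0.000675) and kdr (3.06, adjusted p = 0.00418), which neuropilins assist, and kdrl is the reporter of that line. The genes kdrl, flt1 and flt4 are also among the 18 endothelial markers, so the count of 9 is not independent of the sort's own markers. Those that fell included neo1a, for the netrin receptor neogenin (by 1.70, adjusted p = 0.0127), dscamb (by 2.01, adjusted p = 0.0162) and gpc1a (by 1.70, adjusted p = 0.0233). In the acta2/foxc1b sort, negative replicate 2 included, 0 of 116 partners were called, beside 0.0271% higher and 0.0% lower of all genes.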

How the data were processed

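The table that the authors deposited holds, for 30220 genes and 17 libraries, a normalized read count, a signal that is the number of reads divided by a size factor. Per the file headers it also gives the authors' log2 fold change, its standard error, a score (the test statistic, for the acta2 lines), a p-value and its adjusted form for each sort. The submitters' processing notes name bcl2fastq 2.14, CASAVA 1.8.2, featureCounts 1.5.2, DESeq2 1.20.0 and GRCz11 as the build. Aligner and annotation: not given in the sources used here. Per the labels' protocols RNA was isolated with TRIzol and primed with oligo dT. Both acta2 lines had REPLI-g amplified cDNA and TruSeq adapters, and libraries of fixed kdrl cells were made with TotalScript.

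Values were whole multiples of 1 step per library, with 100% whole within 0.1 read, so reads could be recovered. Row means equaled the deposited baseMean over 11 acta2 and 6 kdrl libraries separately, so these sets were scaled apart, and levels are compared within a set only.

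Because the values are normalized, log2(value + 1) was tested by limma-trend (limma 3.58.1, R 4.3.3), two-sided, over genes that reached 10 in no fewer libraries than the smaller group holds, with Benjamini-Hochberg adjustment over all genes tested and 0.05 as the threshold. Each sort was fitted alone and differences of effects as interaction contrasts. The code was tested on simulated data. Alternatives were pseudocounts of 0.5 and 5, no filter, quantile normalization, edgeR 4.0.16 and DESeq2 1.42.0 on recovered reads, a replicate block, and each library left out. Same-numbered kdrl libraries deviated together from their group means (correlations across genes of 0.475, 0.128 and 0.422), so the numbers were taken to pair them. Reads of amplified cDNA are not independent molecules.

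The genes, the marker and partner lists and the tests were chosen with earlier results of these data known. Named with values are a vascular core of guidance genes, every called gene, and the 4 smallest p-values of the acta2/foxc1b sort; ntn5, ephb3, plxna2 and some others were added after their values were seen.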

Additional observations from a re-analysis of the deposited data

Results flagged for a closer look

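The following differences between sort effects, kdrl line minus acta2 line, passed the test of the difference itself, the limma interaction contrast, and all values are on the log2 scale. The kdrl effect was higher for sema7a by 3.79, sema6a by 3.65, plxnd1 by 3.63, plxnc1 by 2.98 and robo4 by 2.25. Among class 3 semaphorins the difference was -4.03 for sema3e, -3.47 for sema3d, -2.81 for sema3fa, -2.08 for sema3c and -1.51 for sema3fb. For the membrane semaphorins sema5bb and sema6e it was -2.64 and -2.18. Among Eph receptors it was -3.51 for ephb3b, -1.96 for ephb3a, -1.46 for epha7 and -1.44 for epha4a. It was -2.76 for robo1, -2.62 for robo3, -2.64 for slit3, -2.15 for plxna1a and -1.62 for ntn1a. With 1 library left out, 10 of these differences lost the call in at least 1 case, with limma adjusted p up to 0.0917 for plxnd1 (kdrl negative replicate 1), 0.105 for robo4 and 0.108 for sema3fb, 0.109 for epha4a, 0.104 for epha7 and 0.0867 for ephb3a (kdrl negative replicate 2), 0.0821 for robo3, 0.109 for sema6e and 0.0673 for sema5bb (acta2 negative replicate 2), and 0.0892 for ntn1a (kdrl negative replicate 3).

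Between the kdrl and acta2/foxc1b lines, which were compared with the same kdrl libraries, the differences that passed were -5.71 for sema3d, -4.44 for sema3bl, -4.05 for sema3e, -2.86 for sema3c, -2.62 for sema3fa and -2.55 for epha7. With 1 library left out, adjusted p reached 0.185 for sema3bl, 0.144 for sema3c, 0.135 for epha7, 0.0814 for sema3d and 0.0621 for sema3e (acta2/foxc1b positive replicate 2), and 0.103 for sema3fa (kdrl negative replicate 2). No group had more than 3 libraries, so single libraries were not tested as outliers.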

How the results depend on the processing

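The called genes of each comparison and the 4 smallest p-values of the acta2/foxc1b sort were followed under each alternative. Of their values, 601 kept direction and side of the threshold, 221 kept direction but lost the call, 5 gained it and 0 changed direction. These genes were chosen for small p-values, so changes of direction were unlikely from the start. Uncalled genes of the vascular core were not scored. In the acta2 sort the replicate block, which no label or correlation backs there (same-number correlations 0.00968, -0.0225 and -0.0137), gave 1 lower, against 2.73% of all genes, and in the acta2/foxc1b sort (0.144 and 0.0559) it gave 0 and 0, against 0.292% and 0.386%. DESeq2 gave 4 higher in the acta2/foxc1b sort and 5 higher and 20 lower in the kdrl sort, against 7.43% and 7.25% of all genes. Quantile normalization gave 22 lower in the kdrl sort, against 3.8% of all genes. The replicate block gave 8 higher and 27 lower in the kdrl sort and, for the kdrl minus acta2/foxc1b effects, 1 lower. The block changed the calls named beside the kdrl results and no call among the 21 kdrl minus acta2 differences. With 1 library left out, guidance genes called higher and lower ranged over 1 to 6 and 1 to 3 in the acta2 sort, 0 to 2 and 0 to 0 in the acta2/foxc1b sort, 1 to 6 and 0 to 8 in the kdrl sort, 3 to 5 and 8 to 17 for kdrl minus acta2 effects, and 0 to 4 and 1 to 15 for kdrl minus acta2/foxc1b effects. Causes of these changes were not tested. All-gene shares of fits with 1 library left out are given only for acta2/foxc1b negative replicate 2. Whether guidance genes lost more calls than other genes cannot be told from these ranges. Groups of 2 or 3 libraries limit every call, and stage, fixation and kit cannot be told apart from the kdrl line.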

Other observations

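Several guidance genes were high in a single library of a group of 3. In acta2 negative replicate 1 the level was over 3 times that of the next acta2 negative library for ephb4a (11314 against 2463 normalized read counts), unc5c (1269 against 197), sema7a (1210 against 389), ntn2 (764 against 104), sema6d (611 against 132), plxnd1 (130 against 25.7) and unc5a (108 against 24.5). In acta2/foxc1b negative replicate 2, the library with the high epidermis marker sum, this held for epha2a (6946 against 650), efna1b (3560 against 494), ephb4b (890 against 165) and ntn4 (128 against 40.8). In acta2 negative replicate 2 it held for epha2a (3412 against 926), and in kdrl positive replicate 2 for the plexin gene plxna2 (7056 against 1584). The summed epidermis markers also differed within acta2 positive libraries, at 43203 normalized read counts in replicate 2 and 11123 and 9019 in the others.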
